A study of Mus musculus with 10 samples.

Results

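The Runx1 locus was described by every peak of the 5 deposited lists that overlapped chr16:92580000-93100000 of the mm9 build, a window of 520 kb that holds the gene and the sequence on either side of it. The window held 479 of the 234627 peaks in all lists. Of these, 77, 62 and 60 lay in H3K27ac replicates 1, 2 and 3, and 140 lay in each of H3K4me1 replicates 1 and 2. Runx1 was placed near positions 92601700 to 92826300 on the minus strand, limits given to the nearest 100 bp, so that the gene starts at the high end. Each peak's fold is the authors' ratio of immunoprecipitate to local input at the summit of that peak. The locus was chosen from these folds, because a region with both marks near its distal promoter ranked among the highest of the study. Folds, ranks and the overlap of the marks are therefore descriptions without a test.

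The study mapped putative enhancers in mast cells grown for 4 weeks with 20 ng/ml of recombinant interleukin-3 from the bone marrow of C57BL/6 mice aged 6 to 8 weeks. Over 99% of the cells carried the IgE receptor and Kit, 2 surface receptors that define mast cells, per the labels. All cells were untreated, and the 10 samples were 5 immunoprecipitates, 3 for H3K27ac and 2 for H3K4me1, each with its input. The labels do not say whether the replicates were separate mice or cultures. The caller used 10457047 to 19513552 immunoprecipitate tags and 9433267 to 19265001 input tags per list. A place without a peak is one where the caller's limit was not passed at that depth. The lists hold no gene names and no expression, so the cell type could not be checked against markers.

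Runx1 encodes the DNA-binding subunit of core-binding factor, a transcription factor required for the first blood stem cells and used in many blood lineages. The gene has a distal and a proximal promoter, which give proteins with different amino termini. An enhancer active in blood stem cells is known in the long intron between them. Its position in mm9 was not looked up, and no peak is assigned to it here. H3K27ac is found at active promoters and enhancers. H3K4me1 marks enhancers, active ones and those held in reserve, and is usually low right at the start of an active gene.

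The letters of the promoters are shown because peaks lay beside both of their distances along the gene. They are those of RefSeq on GRCm38.p6, from 250 bases before each start to 50 after it, and their positions are of that build only. The distal promoter is chr16:92826025-92826324 and the proximal promoter is chr16:92697280-92697579, both on the minus strand. In the distal promoter the capitals mark matches to the motifs searched, and in the proximal promoter, which held none of them, the capitals mark CpG.
distal promoter: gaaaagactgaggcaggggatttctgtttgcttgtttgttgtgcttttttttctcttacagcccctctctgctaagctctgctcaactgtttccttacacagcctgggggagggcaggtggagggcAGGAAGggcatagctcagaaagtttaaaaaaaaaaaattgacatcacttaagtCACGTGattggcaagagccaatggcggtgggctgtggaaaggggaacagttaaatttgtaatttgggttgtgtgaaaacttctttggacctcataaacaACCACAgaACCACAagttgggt
proximal promoter: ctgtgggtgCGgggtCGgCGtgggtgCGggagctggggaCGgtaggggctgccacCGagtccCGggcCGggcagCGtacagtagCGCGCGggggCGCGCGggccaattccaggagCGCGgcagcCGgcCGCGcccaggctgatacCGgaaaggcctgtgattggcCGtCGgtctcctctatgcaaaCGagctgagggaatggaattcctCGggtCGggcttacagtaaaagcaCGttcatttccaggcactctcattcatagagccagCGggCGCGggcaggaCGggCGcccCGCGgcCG

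The promoters differed in composition. The distal promoter had a GC content of 45.0% and 2 CpG, and 14.1% of the 32851 promoters of the table had fewer CpG. The proximal promoter had a GC content of 69.0% and 35 CpG, and 93.0% of the promoters had fewer. The median promoter had 7 CpG. Motifs were searched on both strands. The RUNX motif TGTGGT occurred 2 times in the distal promoter, on the other strand as ACCACA, at positions 29 and 37 of the transcript, and 16.8% of all promoters held it. RUNX motifs are what the Runx1 protein itself binds. The E box CACGTG, a sequence bound by helix-loop-helix factors such as Mitf, lay 71 bases before the distal start, and 7.15% of all promoters held it. The ETS motif AGGAAG lay 124 bases before that start, and 35.4% of promoters held it. The wider E box CANNTG, which also takes in CACGTG, occurred 3 times there and was held by 72.3% of promoters. Its other matches are not in capitals. The GATA motif AGATAA, the AP-1 motif TGACTCA, the GC box CCGCCC and the TATA motif TATAAA were in neither promoter, and were held by 11.2%, 5.20%, 35.7% and 13.6% of all promoters. A match is a run of letters and not a measured binding site.

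Peaks of both marks were dense over the locus, while their heights were ordinary for their lists. Peaks covered 15.4%, 12.9% and 11.5% of the window in H3K27ac replicates 1, 2 and 3, against 1.26%, 1.04% and 0.940% of chromosomes 1 to 19. In H3K4me1 replicates 1 and 2 they covered 14.5% and 15.3%, against 1.41% and 1.42%. The ratio of these was 12.3 ± 0.115 (SD, n = 3) for H3K27ac and 10.5 ± 0.364 (SD, n = 2) for H3K4me1. Of tiles of the same length on chromosomes 1 to 19, 10 of 4755 had more cover than the window in H3K27ac replicate 1, 13 of 4752 in replicate 2 and 15 of 4754 in replicate 3. For H3K4me1 these were 12 of 4753 tiles and 12 of 4751.

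The folds of the window's peaks spanned 3.42 to 39.5 in H3K27ac replicate 1, 3.30 to 21.7 in replicate 2 and 3.63 to 24.3 in replicate 3. In H3K4me1 replicates 1 and 2 they ran from 3.19 to 17.7 and from 2.86 to 12.4. Their medians were 8.01, 6.83 and 7.25 in the H3K27ac lists, where those of the whole lists were 7.93, 6.80 and 7.54. For H3K4me1 they were 7.29 and 5.99, beside 6.50 and 6.13. Among the highest 10% of each list by fold were 9 of the 77 peaks of H3K27ac replicate 1 (11.7%, with 10% over the list), 9 of 62 in replicate 2 (14.5%, with 10%) and 5 of 60 in replicate 3 (8.33%, with 10.2%). For H3K4me1 they were 20 of 140 in replicate 1 (14.3%, with 10%) and 9 of 140 in replicate 2 (6.43%, with 10%). These shares lay above that of the list in H3K27ac replicates 1 and 2 and in H3K4me1 replicate 1, and below it in the others. The H3K4me1 replicates thus differed in direction, as did their medians. Peaks per 100 kb were 8.98 ± 0.339 times those of chromosomes 1 to 19 for H3K27ac (SD, n = 3) and 10.1 ± 1.20 times for H3K4me1 (SD, n = 2). The H3K27ac peaks were also longer, with median lengths of 588, 708.5 and 629 bp against 493, 487 and 478 bp in the whole lists. For H3K4me1 the medians were 421 and 453.5 bp against 356 and 437 bp.

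**Figure D1:**
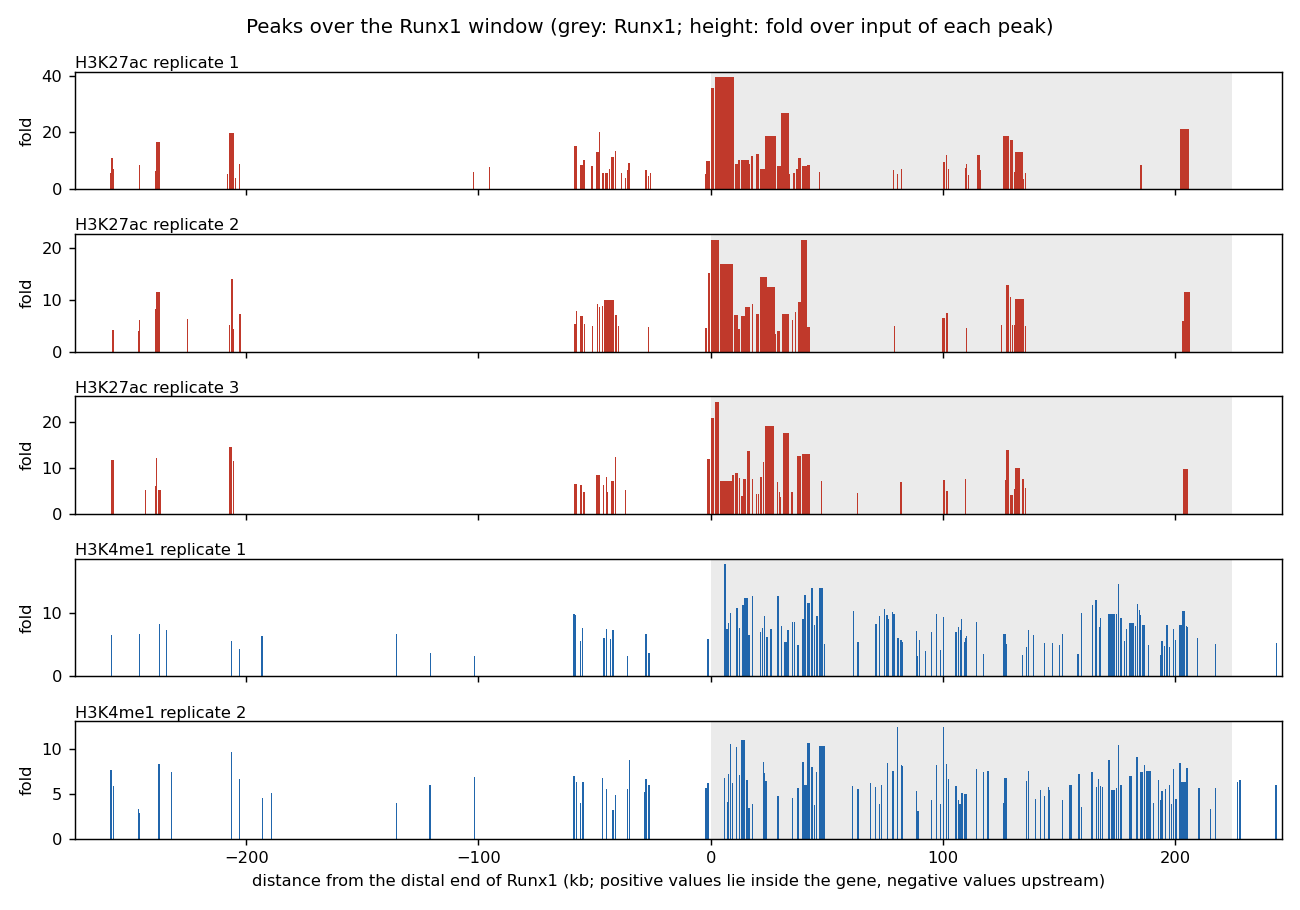
Peaks of the 5 lists over the Runx1 window, plotted by distance from the distal end of the gene in kb, with positive values inside the gene and negative values upstream. The height of each block is the fold over input at that peak's summit, drawn flat over the peak's length, and the grey area is Runx1; H3K27ac covers most of the first 42.9 kb of the gene, while H3K4me1 peaks also lie densely in its far end.

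Most peaks of the window recurred between the lists of a mark. In H3K27ac replicates 1, 2 and 3, 44 of 77 (57.1%, interval 45.4 to 68.4), 48 of 62 (77.4%, 65.0 to 87.1) and 52 of 60 (86.7%, 75.4 to 94.1) overlapped a peak in every other list of the mark, against 56.5%, 68.5% and 75.7% over the whole lists. In H3K4me1 replicates 1 and 2, 113 of 140 (80.7%, 73.2 to 86.9) and 107 of 140 (76.4%, 68.5 to 83.2) did, against 65% and 73.8%. Each share lay above that of its whole list, by little in H3K27ac replicate 1. Only in H3K4me1 replicate 1 did the interval leave out the share of the whole list. Neighbouring peaks are not independent, so the intervals are no test of a difference. Joined over lists, 31 of 68 H3K27ac regions (45.6%, with 45.5% over the genome) and 100 of 160 H3K4me1 regions (62.5%, with 51.2% over the genome) had a peak in every list, and these are the consensus regions of the window.

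A larger share of the regions had both marks than over the genome. Of the 31 H3K27ac consensus regions, 22 overlapped H3K4me1 consensus (71.0%, interval 52.0 to 85.8), against 40.5% of all such regions. Of the 100 H3K4me1 consensus regions, 37 overlapped H3K27ac consensus (37.0%, interval 27.6 to 47.2), against 24.4%. No H3K4me1 peak of any list overlapped 7 of the H3K27ac regions (22.6%, with 46.9% over the genome), and no H3K27ac peak overlapped 50 of the H3K4me1 regions (50.0%, with 61.7% over the genome). Joining the overlapping regions gave 21 stretches with both marks, of which 5 were longer than the 90th percentile of 4439 bp of all 7587 such stretches. The locus was chosen for a region with both marks, and the regions lie side by side on one chromosome and are not independent. These shares are therefore descriptions. Peaks of both marks were also dense here, and how far that density alone gives overlaps from 1 bp was not tested. The caller's version changed with the mark, and the effects of version and mark cannot be told apart.

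Within the gene the marks were spread differently. The gene interior was divided into 3 equal parts of 74.0 kb, called here the start-side, middle and end-side parts, and the 2.5 kb on either side of the distal end were kept apart as the distal promoter zone. H3K27ac covered 47.4%, 43.8% and 41.5% of the start-side part in replicates 1, 2 and 3, and 6.75%, 4.23% and 3.31% of the end-side part. H3K4me1 covered 35.8% and 28.8% of the start-side part in replicates 1 and 2, and 31.2% and 35.5% of the end-side part. The cover of the start-side part was 7.02, 10.4 and 12.5 times that of the end-side part in the H3K27ac lists, and 1.15 and 0.810 times in the H3K4me1 lists. Each of these ratios lies within a list, and the ranges of the marks did not overlap. In the middle part the cover was 14.6% ± 3.53 (SD, n = 3) for H3K27ac and 19.4% ± 1.28 (SD, n = 2) for H3K4me1.

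**Figure D2:**
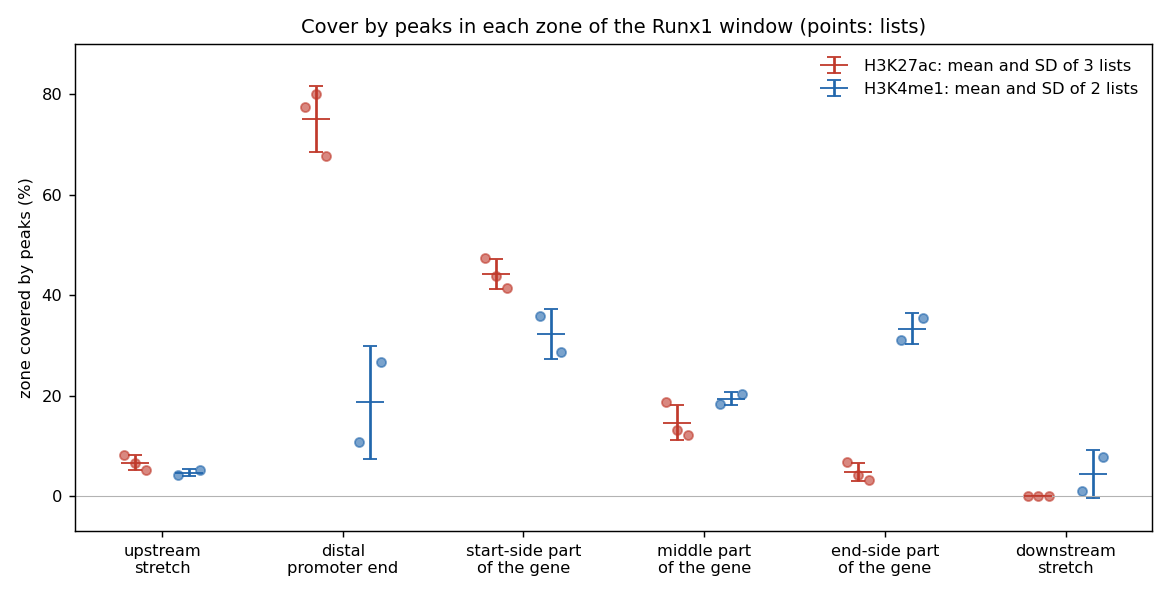
Share of each zone of the Runx1 window covered by peaks, in percent, with 1 point per list and the mean and SD of the lists of each mark. H3K27ac falls from 75.0% of the distal promoter zone to 4.76% of the end-side part of the gene, while H3K4me1 covers 32.3% of the start-side part and 33.4% of the end-side part.

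At the distal promoter zone H3K27ac lay on both sides of the gene's start with a short gap at the start itself. H3K27ac covered 77.5%, 80.0% and 67.6% of the zone in replicates 1, 2 and 3. The gap between peaks that held the distal end was 305, 313 and 349 bp wide in the 3 lists, and 289 bp from 92826140 to 92826428 was free in all of them. On the gene side of the gap the peak was 35.5 fold in replicate 1 (rank 96), 21.5 fold in replicate 2 (rank 101) and 20.9 fold in replicate 3 (rank 535). On the upstream side the peak was lower, with folds of 9.78, 15.1 and 12.0 and ranks of 13839, 1266 and 4997. The summits on the upstream side lay within 40 bp of each other in the 3 lists, and those on the gene side within 655 bp.

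H3K4me1 covered 10.8% and 26.6% of the zone in replicates 1 and 2 and had no peak at the start. The nearest H3K4me1 peaks in replicate 1 had folds of 5.48 on the gene side and 5.84 upstream, and those in replicate 2 had 4.61 and 6.14. They left 5995 bp in replicate 1 and 5990 bp in replicate 2 without a peak, and 5981 bp, from 92821145 to 92827125, were free in both. H3K27ac covered 87.8%, 84.3% and 83.7% of that stretch in replicates 1, 2 and 3. Longer stretches without an H3K4me1 peak lay elsewhere in the window. The H3K27ac consensus region next to the start, chr16:92824606-92826139, overlapped no H3K4me1 peak, and by mean rank it was number 8 of the 9225 H3K27ac regions of the genome without H3K4me1.

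**Figure D3:**
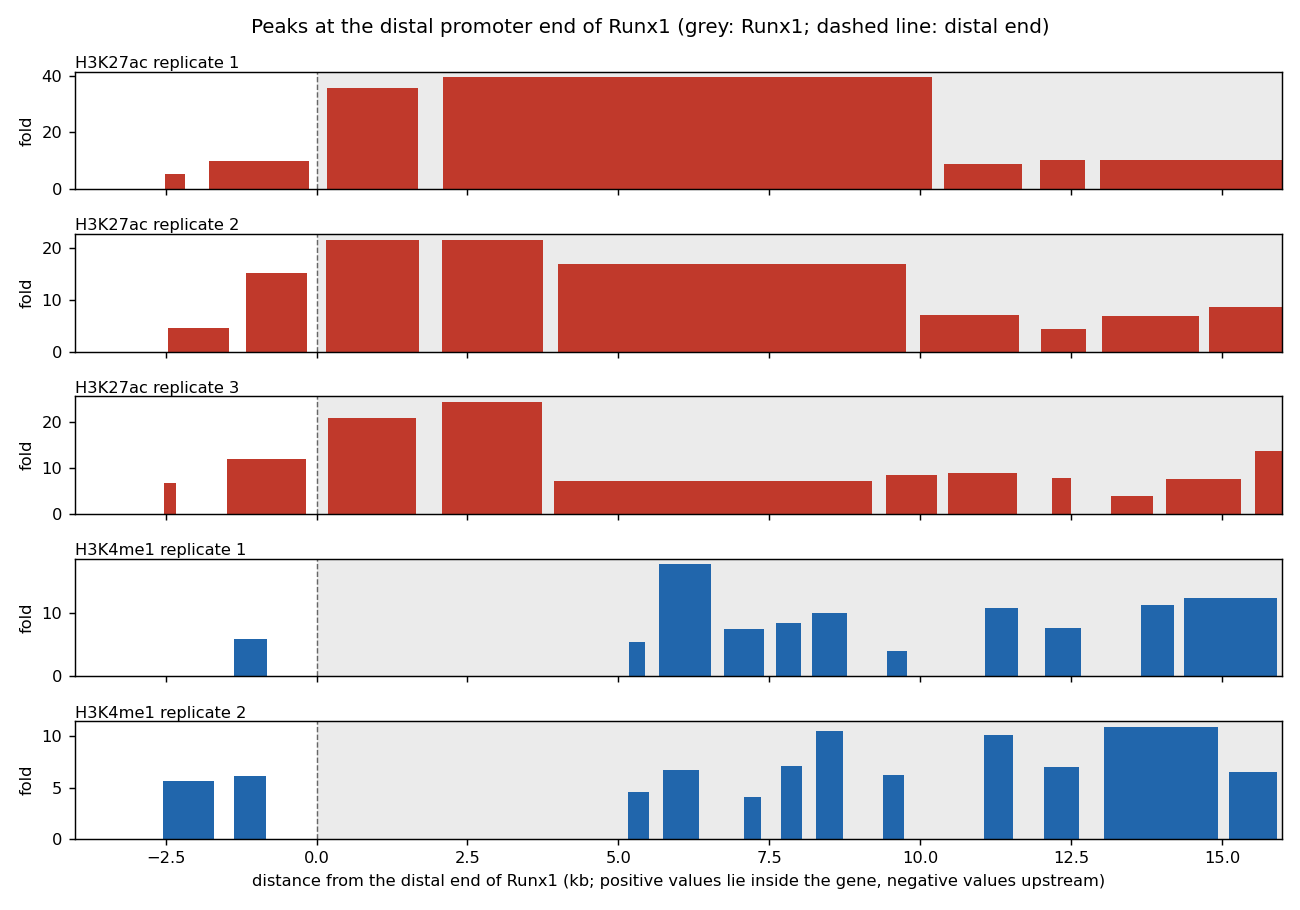
Peaks of the 5 lists from 4 kb upstream of the distal end of Runx1 (dashed line) to 16 kb inside the gene (grey), with the fold over input of each peak as height. In replicates 2 and 3 the highest H3K27ac peaks lie on the gene side within 3.8 kb of the distal end, where neither H3K4me1 list has a peak, while both have one upstream of it. In replicate 1 the highest summit belongs to a peak of 8092 bp that runs on over H3K4me1 peaks farther inside.

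By fold, the highest H3K27ac peak of the window lay 2.53 to 2.56 kb inside the gene in all 3 lists. In replicate 1 the peak chr16:92824623-92826123 beside the start was higher by pileup (105.62 against 95.78) and by minus log10 q-value (132.839 against 129.053). The summits of the highest peak by fold were at 92823748, 92823769 and 92823740 in replicates 1, 2 and 3, a range of 29 bp. Its folds of 39.5, 21.7 and 24.3 ranked 43 of 39837, 92 of 34035 and 186 of 30599 peaks. None of these summits lay in an H3K4me1 peak: the nearest was at least 2.60 kb away on the gene side and at least 3.36 kb away upstream.

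This peak is part of the highest-ranking stretch with both marks at the locus, chr16:92814622-92824227, which is 9606 bp long and lies 2.1 to 11.7 kb inside the gene. H3K27ac covered 97.6%, 94.4% and 92.9% of it in replicates 1, 2 and 3, and H3K4me1 covered 38.2% and 30.0% in replicates 1 and 2. Each H3K4me1 list had 7 peaks in it, and the highest had folds of 17.7 in replicate 1 (rank 82) and 10.6 in replicate 2 (rank 2572). The stretch was number 4 of 7587 by mean rank, with a mean rank of 595 over the 5 lists. The nearest in that order were a stretch on chromosome 18 with a mean rank of 549 and one on chromosome 11 with 597.6.

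The joining of the highest H3K27ac peak to H3K4me1 rested on H3K27ac replicate 1, whose peak there was 8092 bp long. In replicates 2 and 3 the same ground held separate peaks. Without replicate 1 the consensus split into chr16:92814672-92822361, which overlapped H3K4me1 and reached folds of 16.9 in replicate 2 and 8.96 in replicate 3, and chr16:92822547-92824227, which reached 21.7 and 24.3 and overlapped no H3K4me1 peak of any list. The remaining stretch with both marks was then number 342 by mean rank. Without H3K4me1 replicate 1 the stretch was number 24, and without H3K4me1 replicate 2 it was number 1. Ranked by pileup in place of fold it was number 54.

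In the first 42.9 kb of the gene most H3K27ac regions overlapped H3K4me1. From 42.9 to 81.7 kb inside, which takes in the rest of the start-side part, 38.8 kb held no H3K27ac consensus region and 10 H3K4me1 ones. In that stretch lay 5, 3 and 2 H3K27ac peaks in replicates 1, 2 and 3, and 16 H3K4me1 peaks in each list. The start-side part as a whole held 9 H3K27ac consensus regions, of which 8 overlapped H3K4me1 consensus (88.9%, with 40.5% over the genome). It also held 28 H3K4me1 consensus regions, of which 19 overlapped H3K27ac consensus (67.9%, with 24.4% over the genome). With H3K27ac consensus regions stitched across gaps of up to 10 kb, 11 regions from the upstream side of the start to 42.9 kb inside the gene formed a single cluster of 45.4 kb, of which they covered 40.4 kb, and 9 of them overlapped H3K4me1. By cover it was number 12 of 10218 clusters of the genome, and number 7 of 11734 with stitching across 5000 bp or 25 of 8409 across 20000 bp.

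The stretch chr16:92797978-92805127, 21.2 to 28.3 kb inside, reached folds of 18.6 in H3K27ac replicate 1, 14.3 in replicate 2 and 19.2 in replicate 3, with 9.47 and 8.57 for H3K4me1. It was number 597 by mean rank. The stretch chr16:92809111-92813315, 13.0 to 17.2 kb inside, had 10.2, 8.64 and 13.7 for H3K27ac and 12.4 and 10.9 for H3K4me1, and was number 898. Its H3K4me1 peak in replicate 2 was that list's highest in the start-side part. A stretch singled out after its values were seen, chr16:92792236-92797762, had H3K27ac folds of 26.7, 7.25 and 17.7, so that replicate 2 stood low, and H3K4me1 folds of 12.7 and 4.70. The H3K27ac region chr16:92805378-92806667, 19.6 to 20.9 kb inside, overlapped no H3K4me1 peak and had folds of 12.4, 7.26 and 4.31.

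The H3K27ac lists ranked the stretch chr16:92783378-92787186, 39.1 to 42.9 kb inside and number 680 by mean rank, very differently. The H3K27ac peak with its summit 39.7 kb inside had a fold of 8.30 in replicate 1, ranking 18498, and of 21.6 in replicate 2, ranking 98. In replicate 3 it was 13.1, ranking 3789. By pileup, the tag height before division by the input background, the same peaks ranked 1902, 324 and 595. H3K4me1 reached 12.9 and 10.6 there. By tag height the peak was thus among the higher ones of every list, and by fold it was not in replicate 1.

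**Figure D4:**
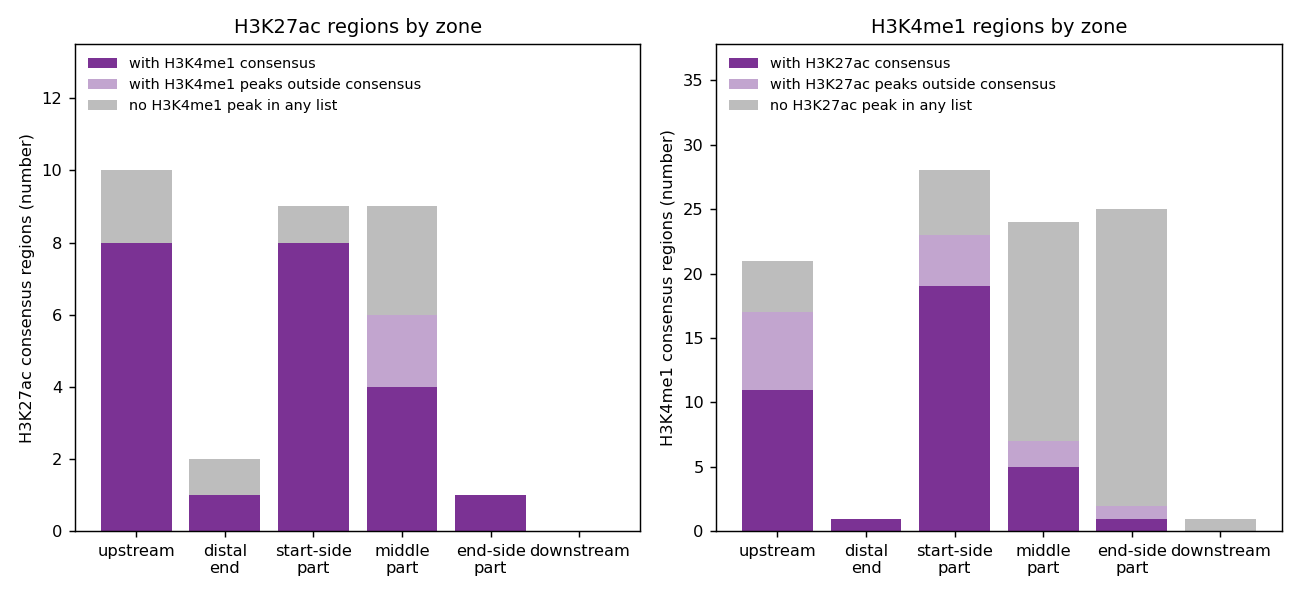
Number of consensus regions of each mark in each zone of the Runx1 window, divided by whether the region overlaps a consensus region of the other mark, only peaks of the other mark outside its consensus, or none. In the start-side part of the gene 19 of 28 H3K4me1 regions overlap H3K27ac consensus, and in the end-side part 1 of 25 does. Over the genome 24.4% do.

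The middle part held another group of H3K27ac peaks, which lay at the distance of the proximal promoter. In the RefSeq table of GRCm38.p6 the starts of the promoters are 128745 bp apart, and the gene is 224609 bp long against 224600 bp between the rounded limits used for mm9. In the lists, a gap between H3K27ac peaks lay 128517 to 128886 bp inside the distal end in all 3 replicates. The builds were not aligned, so this is a match of distances and not of positions. Short gaps like this one and that at the distal end were common. Of the 67 gaps between joined H3K27ac regions of the window, 31 were at most 500 bp long.

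The H3K27ac peaks on either side of that gap differed in height. On the upstream side the folds were 18.7, 12.9 and 13.9 in H3K27ac replicates 1, 2 and 3, ranking 2897, 2583 and 3180, and this was the highest peak of the middle part in each of these lists. On the gene side they were 17.1, 10.6 and 4.17, ranking 3862, 5313 and 29842, so that replicate 3 stood low. Here the upstream peak was the higher one in every list, whereas at the distal end the peak on the gene side was. The gene-side region, chr16:92695999-92697413, overlapped no H3K4me1 peak. The stretch with both marks on the upstream side, chr16:92697784-92700379, had H3K4me1 folds of 6.73 and 6.72, and was number 2835 by mean rank.

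H3K4me1 was also missing around this gap. The stretch around it without an H3K4me1 peak was 6461 bp long in replicate 1 and 8163 bp in replicate 2, and 6434 bp were free in both. Such stretches were not particular to the promoter distances, and longer ones lay elsewhere. Neither H3K4me1 list had a peak between 92767251 and 92777139 inside the gene, or over 42.3 kb from 59.2 to 101.4 kb upstream. H3K27ac was dense on both sides of the gap: 5 consensus regions from 126.0 to 135.7 kb inside the gene formed a cluster covering 8.75 of 9.72 kb, and 1 of them overlapped H3K4me1 consensus. That cluster was number 564 of 10218 by cover, below the cluster at the distal promoter.

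**Figure D5:**
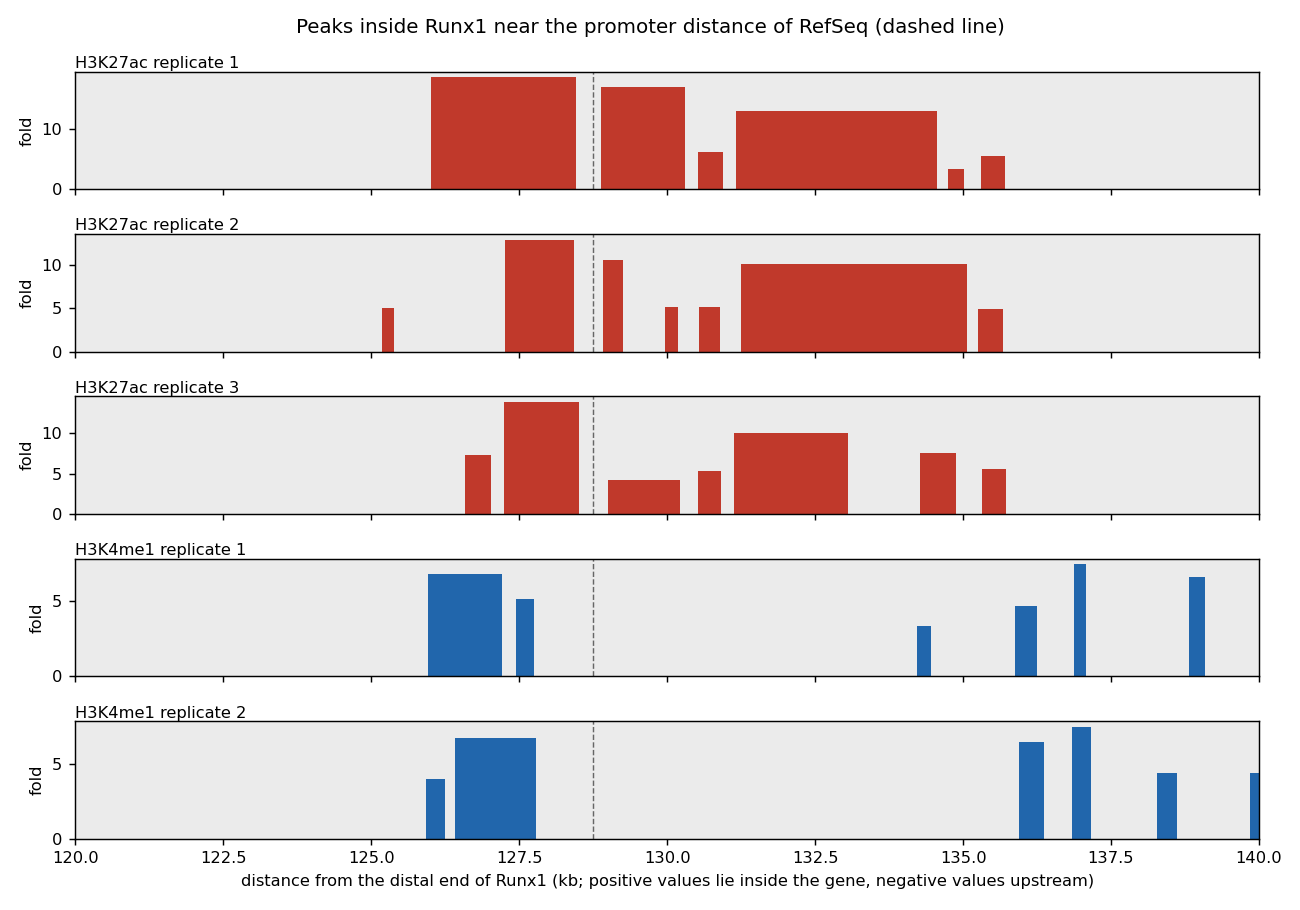
Peaks of the 5 lists around the promoter distance inside Runx1, with the fold over input of each peak as height. The dashed line is the distance between the promoter starts in the GRCm38.p6 table, 128.7 kb, drawn on mm9 distances; it falls in a gap between H3K27ac peaks in all 3 replicates, and neither H3K4me1 list has a peak from 127.8 to 134.2 kb.

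Elsewhere in the middle part many H3K4me1 regions lay apart from H3K27ac, at a share near that of the genome. Of its 24 H3K4me1 consensus regions, 17 had no H3K27ac peak in any list (70.8%, with 61.7% over the genome). The stretch with both marks chr16:92725146-92726484, 99.8 to 101.2 kb inside, had H3K27ac folds of 9.66, 6.53 and 7.34 and H3K4me1 folds of 9.35 and 12.4. The last of these ranked 712 and was the highest fold of the window in H3K4me1 replicate 2, tied with the peak chr16:92745540-92745994, 80.5 kb inside. In H3K4me1 replicate 1 the highest peak of the middle part lay 78.3 kb inside, with a fold of 10.2. Of the H3K4me1 regions without H3K27ac, chr16:92728868-92729355 had folds of 9.91 and 8.22, and chr16:92749918-92750805, at the edge of the start-side part, had 9.74 and 8.44.

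The end-side part, towards the 3′ end of the gene, held many H3K4me1 peaks and few H3K27ac peaks. It held 25 H3K4me1 consensus regions, of which 23 overlapped no H3K27ac peak in any list (92.0%, with 61.7% over the genome). It held 1 H3K27ac consensus region. From 135.7 to 202.4 kb inside, 66.6 kb of the gene had no H3K27ac consensus region and 25 H3K4me1 ones. In that stretch lay 2, 0 and 1 H3K27ac peaks in replicates 1, 2 and 3, and 37 and 40 H3K4me1 peaks in replicates 1 and 2. The median folds of H3K4me1 were a little below those near the start: 7.86 and 5.82 in the end-side part in replicates 1 and 2, against 8.56 and 6.43 in the start-side part. Fewer of its peaks were among the highest 10% of their list by fold. These were 6 of 37 and 1 of 38 in replicates 1 and 2, against 12 of 39 and 5 of 35 in the start-side part. With 10% over each whole list, the end-side part stood above that share in replicate 1 and below it in replicate 2. The start-side part holds the region for which the locus was chosen.

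The highest H3K4me1 region without H3K27ac was chr16:92650227-92650880, 175.4 to 176.1 kb inside, with folds of 14.6 in replicate 1 (rank 562) and 10.3 in replicate 2 (rank 2833). It was the highest peak of the end-side part in both lists and number 123 of 26102 such regions of the genome. Next came chr16:92642210-92643041, with 11.4 and 9.11, and chr16:92652154-92655277, which was 3124 bp long and had 9.77 and 8.69.

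The exception was chr16:92620026-92624509, 201.8 to 206.3 kb inside. Over 4484 bp it had both marks. The H3K27ac lists reached folds of 21.3 in replicate 1, 11.5 in replicate 2 and 9.66 in replicate 3, and the H3K4me1 lists 10.3 and 8.40. The ranks in the H3K27ac lists were 1851, 3950 and 8748. It was number 910 by mean rank, the fifth best of the window. Below the gene, the last 21.7 kb of the window held no H3K27ac peak in any list, and 1 and 3 H3K4me1 summits with folds of at most 6.49.

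Upstream of the distal promoter zone, H3K27ac consensus regions lay 40.4 to 58.8 kb or 205.3 to 258.2 kb from the distal end, with none between or nearer. The nearer sequence was not empty. From 26.2 to 36.0 kb upstream, H3K4me1 consensus regions overlapped H3K27ac peaks outside consensus, of replicate 1 in each region and of replicate 3 in none. The upstream stretch of 271.2 kb was covered by H3K27ac to 8.12%, 6.62% and 5.19% in replicates 1, 2 and 3, and by H3K4me1 to 4.19% and 5.20%. The near group lay 40.4 to 58.8 kb upstream, where 6 H3K27ac consensus regions covered 11.8 kb and 5 of them overlapped H3K4me1. Its highest H3K27ac peak in replicate 1, 47.8 kb upstream with a fold of 20.2, belonged to the region chr16:92873810-92875623, which overlapped no H3K4me1 peak and reached 9.20 and 8.37 in replicates 2 and 3. The stretch chr16:92883713-92885458 had H3K27ac folds of 15.1, 7.90 and 6.56 and H3K4me1 folds of 9.89 and 7.0. The highest H3K4me1 peak of replicate 1 upstream, with 10.6, lay 54.6 kb from the distal end, in the same group.

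From 58.8 to 205.3 kb upstream, 146.5 kb held no H3K27ac consensus region and 5 H3K4me1 ones. In that stretch lay 5, 1 and 0 H3K27ac peaks in replicates 1, 2 and 3, and 5 and 8 H3K4me1 peaks in replicates 1 and 2. The far group began with chr16:93031642-93033867, with H3K27ac at 19.9, 13.9 and 14.6 fold and H3K4me1 at 5.61 and 9.67 fold, each in replicate order. This was the highest upstream H3K27ac peak of replicates 2 and 3 and the highest upstream H3K4me1 peak of replicate 2. The stretch chr16:93062914-93065056, 236.6 to 238.8 kb upstream, had 16.7, 11.6 and 12.2 for H3K27ac and 8.22 and 8.28 for H3K4me1. It ranked number 1383, the best of the upstream stretches. Beside it, chr16:93065215-93065795 had H3K27ac folds of 6.32, 8.28 and 6.05 without H3K4me1. By the order of genes in the RefSeq table, the protein-coding genes next to Runx1 are Clic6 beyond its 3′ end and Setd4 on the upstream side, and the lists do not say which gene an upstream peak acts on.

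The window's limits were set by position. The last H3K27ac peak below it lay at least 134.3 kb away, with folds of 18.9, 13.4 and 10.6, while the first inside had 4.49, 11.5 and 9.66. H3K4me1 ran up to the lower limit: the last peaks outside had folds of 8.01 and 3.99, 0.160 and 0.039 kb from it, and the first inside had 5.26 and 5.95. At the upper limit the last H3K27ac peaks inside had folds of 5.67, 4.17 and 11.7, and the first outside had 6.59, 5.02 and 4.91, at least 10.6 kb beyond it. For H3K4me1 these were 6.51 and 7.61 inside and 11.8 and 8.44 outside.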

How the data were processed

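Per the labels' protocols, fixed and sonicated mast cell chromatin was precipitated with an antibody to H3K27ac or H3K4me1, and the libraries were read on an Ion Torrent Proton. The deposited lists are the authors' narrow peaks, which MACS2 called separately for each library and its input, keeping q-values up to 0.001, per the file headers. These give version 2.1.1.20160309 for H3K27ac and 2.0.10.20130306 for H3K4me1, so caller version and mark change together, and only the latter version, with mm9, is named in the submitters' processing notes. No aligner is given in the sources used here. The fold is the authors' deposited ratio of summit pileup over the local input background. The pileup is the authors' signal of extended tags at the summit, with the larger library scaled to the smaller. Minus log10 p-values and minus log10 q-values are also the deposited ones.

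Peaks were ranked by fold within their own list. Overlapping or touching peaks were joined. A joined region that every list of its mark contributed to is a consensus region, and regions of the marks overlapped from 1 bp. Stretches with both marks were ordered by the mean over lists of the rank of their highest peak. Cover was set against that of chromosomes 1 to 19, between the first and last peak of each, and against tiles of the window's length. Intervals are 95% Clopper-Pearson intervals and cover counting error only. Named were the 10 stretches with both marks of best mean rank, the 5 consensus regions of each mark without a peak of the other of best mean rank, and the highest peak of each list in each zone. Promoter letters came from the RefSeq table of GRCm38.p6. That table gave no position for the lists, which are of mm9, and exons and introns were not separated. The interval code was tested on simulated data. The scripts ran under Python 3.11.15 (pandas 2.3.3, NumPy 2.4.6, SciPy 1.17.1), and Matplotlib 3.10.9 drew the plots. The locus, its window and its zones were chosen with earlier results of these data known. No test between lists was run for that reason. Alternatives were other limits on q, joining, overlap, list size and zone width, other measures of height, and each list left out in turn.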

Additional observations from a re-analysis of the deposited data

How the results depend on the processing

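A cover was counted as moved when it changed by more than the SD between lists, and any other value when it changed by over 1.5 times. Of 153 alternative values for 30 results, 47 moved and 106 did not. With a minus log10 q-value of at least 10, the mean number of peaks fell from 66.3 to 38.3 for H3K27ac and from 140 to 90.5 for H3K4me1, H3K27ac cover was 3.25 kb in the distal promoter zone (from 3.75) and 29.0 kb in the start-side part (from 32.7), H3K4me1 cover of the end-side part was 18.7 kb (from 24.7), consensus regions numbered 19 and 54 (from 31 and 100) and stretches with both marks 12 (from 21). With peaks joined across 1000 bp these values were 23.7 and 64.5 peaks, 4.99 and 38.9 kb of H3K27ac, 34.8 kb of H3K4me1 in the start-side part (from 23.9) and 36.1 kb in the end-side part, 14 and 50 consensus regions, and the stretch of highest rank was 20954 bp long. With every list held to its 30599 best peaks, H3K27ac covered 3.31 kb of the distal zone, and H3K4me1 had 79.5 peaks, 19.3 and 18.1 kb in the start-side and end-side parts and 45 consensus regions, with 12 stretches of both marks. H3K4me1 cover was lower in the start-side than in the end-side part with all peaks (23.9 against 24.7 kb), and higher with equal lists, with the stricter q-value (20.5 against 18.7 kb) and without H3K4me1 replicate 2 (26.5 against 23.1 kb). Leaving out 1 list in turn moved that stretch's rank between 1 and 342. By pileup in place of fold it ranked 54, and the highest peaks ranked 22, 59 and 31 in the H3K27ac lists and 237 in H3K4me1 replicate 1. By minus log10 q-value the H3K27ac peaks ranked 27, 25 and 44 and the H3K4me1 peak of replicate 2 ranked 1278. In H3K27ac replicate 1 the highest peak by either measure was chr16:92824623-92826123, which is not the highest by fold. A promoter zone of 1000 bp on either side held 1.68 kb of H3K27ac and 0.171 kb of H3K4me1, and one of 5000 bp held 6.11 kb of H3K27ac. The causes of these changes were not tested. No paired analysis was possible because the results come from no test. The number of tags and the caller's limit set which low places have a peak.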

Other observations

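Neighbouring peaks of a mark were often parted by short gaps. Joined over the lists of a mark, 31 of the 67 gaps between H3K27ac regions of the window were at most 500 bp long, with a median of 246 bp, and so were 63 of the 159 gaps between H3K4me1 regions, with a median of 228 bp. Among peaks that matched 1 to 1 between all lists of a mark, the summits of H3K27ac spanned a median of 185 bp in the window (11 matches) and 111 bp over the genome (13317 matches). Those of H3K4me1 spanned 72 bp (87 matches) and 55 bp (37891 matches).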
